A study of Arabidopsis thaliana with 30 samples.

Results

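The subject is the set of genes that Arabidopsis thaliana carries in its plastid genome, measured in 5 sorted cell populations of the root at 2 pH values of the medium. The members are all probe sets of the deposited table that the platform annotation assigns to 1 gene and that the gene annotation places on the plastid chromosome. This gave 69 probe sets for 69 genes, out of 22810 probe sets in the table and 13513 with 1 gene. A further 8 probe sets that match several genes, at least 1 of them plastid-encoded, were set aside. By symbol the members were 22 photosystem genes (including the assembly factors ycf3 and ycf4), 6 cytochrome b6f genes, 6 ATP synthase genes, 10 NDH genes, 4 RNA polymerase genes, 15 ribosomal protein genes and 6 others (rbcL, accD, clpP, matK, ccsA and cemA).

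Plastids keep a small circular genome, which codes for core subunits of the photosynthetic complexes and for a part of the machinery that transcribes and translates them, while most plastid proteins are coded in the nucleus. A plastid-encoded RNA polymerase (the rpo gene products) and nuclear-encoded polymerases share its transcription, many genes are read together as long multi-gene transcripts, and RNA processing and stability set much of the final RNA level. Root plastids are mostly non-green: columella cells hold starch-filled amyloplasts that serve in gravity sensing, and other root cells hold leucoplasts, in which plastid gene expression still serves fatty acid synthesis and protein turnover.

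Seedlings of ecotype Columbia grew for 5 days on medium of pH 5.7 and then spent 24 h on medium of pH 4.6 or pH 5.7, each with 3 mM DMG in the medium, so the pH 5.7 groups underwent the transfer too. Roots 6 days old were turned into protoplasts, and cells were sorted by the green fluorescent protein of 5 lines, 1 for each population: Pet111::GFP for the columella root cap, pWER::GFP for epidermis with lateral root cap (below, epidermis), pCOR315.1::GFP for cortex, pSCR::GFP for endodermis with quiescent center (below, endodermis) and pWOL::GFP for stele. Each of the 10 groups of cell type and pH had 3 arrays, 30 in all, each with RNA amplified in 2 rounds and hybridised to an Affymetrix ATH1 array. Whether the 3 replicates of a group were grown separately is not stated in the labels, so a p-value here reflects spread among arrays that may be technical.

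Array medians over all probe sets lay between 43.8 and 71.7 signal units. Of the population markers with a probe set, the 3 cortex markers AT1G09750, AT1G62510 and AT3G21670 and the endodermis marker AT4G20140 (GSO1) were highest in their own populations, and the 2 epidermis markers AT1G12560 and AT1G62980 were highest in the epidermis. The epidermis markers also passed the test as higher in the stele than in the mean of the other populations at pH 5.7, by 3.49 for AT1G12560 and 2.49 for AT1G62980 on the log2 scale. AT4G20140 was likewise higher in the cortex, by 1.80, and in the stele, by 1.56. Of the 2 stele markers AT1G30490 (PHV) had its highest mean in the columella and AT2G27230 (LHW) did not pass as higher in the stele at pH 5.7, and no columella marker had a probe set, so those 2 labels were checked weakly or not at all. The part of cells from neighbouring populations in the results below was not tested.

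Each value below is the deposited MAS5 signal in linear units, and differences are on the scale log2(signal + 11.9), which understates changes of dim probe sets. The model was limma over 17038 probe sets with signal above the 40th percentile of the array on at least 3 arrays, with Benjamini-Hochberg adjusted p under 0.05 as the threshold. All 69 members passed that filter: 39 were above the percentile on all 30 arrays, 22 on 15 to 29, and 8 (ndhH, atpI, psaA, rpoB, ndhF, petG, psbN and psbT) on fewer than 15. Signals of different probe sets are not compared with each other.

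Plastid-encoded RNAs were highest in the endodermis and lowest in the cortex, by the median of every functional class on the log2 scale. At pH 5.7, 62 of the 69 genes were higher in the endodermis than in the mean of the other 4 populations, none was called lower, and the median difference was 1.35 on the log2 scale, or 2.54-fold. In the cortex 61 genes were lower and none higher, with a median of -1.70, a 3.24-fold difference. Among all probe sets tested, 22.3% were called higher and 22.7% lower in the endodermis, and 20.3% higher and 27.9% lower in the cortex, with endodermis and cortex medians of 0.01 and -0.11. By means of log2(signal + 11.9), endodermis exceeded cortex for all 69 genes at both pH values, and by means of the deposited signals psaA at pH 4.6 was the exception. At pH 5.7 the cortex arrays also had the highest ratios of 3′ to 5′ control probe sets for actin and ubiquitin. The actin ratio was 98.8 to 127, against at most 92.9 elsewhere, and the ubiquitin ratio 6.49 to 7.64, against at most 6.17. GAPDH ratios overlapped between cortex and other populations. The part of these ratios in the levels was not tested.

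**Figure D1:**
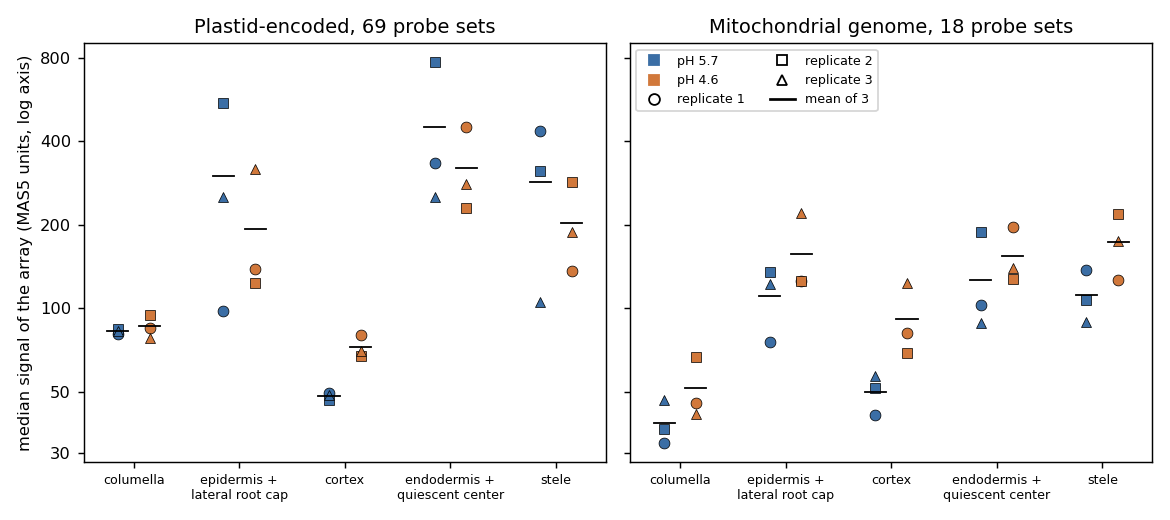
Median signal (MAS5 units, log axis) of the 69 plastid-encoded probe sets (left) and of 18 mitochondrial-genome probe sets (right) on each of the 30 arrays, by cell population and pH, with replicates as symbols and the mean of 3 arrays as a bar. Plastid medians are lowest in the cortex (46.7 to 80.2) and span from 97.5 to 553 in the epidermis.

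The per-array medians of the 69 genes show the pattern before any test. At pH 5.7 they were 334, 772 and 252 in the endodermis, 435, 313 and 105 in the stele, 97.5, 553 and 253 in the epidermis, 80.8, 84.5 and 83.0 in the columella, and 49.3, 46.7 and 48.8 in the cortex. Cortex arrays were below every other array at this pH and columella arrays were next, without overlap, whereas the endodermis, stele and epidermis arrays overlapped widely. At pH 4.6 the values were 450.4, 231 and 282 in the endodermis, 136, 285 and 188 in the stele, 139, 123 and 319 in the epidermis, 85.0, 94.5 and 78.2 in the columella, and 80.2, 67.3 and 70.3 in the cortex. Cortex and columella arrays overlapped at the lower pH. Fewer cells with plastids of a kind, fewer plastids per cell and less RNA per plastid cannot be told apart in such bulk samples.

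The other populations lay between these ends. In the columella 36 genes were lower and none higher at pH 5.7 (26.9% of all probe sets lower, 37.7% higher), with a median of -0.91. In the stele 26 were higher and none lower (19.3% of all higher, 15% lower), with a median of 0.76, and in the epidermis 7 were higher and none lower (21.3% of all higher, 30.7% lower), with a median of 0.48. The 7 were rpl33, rpl16, rps18, rps4, ycf3, psbF and atpB. The epidermis count moved with single arrays, to 39 without replicate 1 at pH 5.7, 2 without replicate 2, 4 without replicate 3 and 13 without stele replicate 1 at pH 5.7. The stele count was 10, 9 and 42 without its replicates 1, 2 and 3 at pH 5.7, and the endodermis count was 34 without its replicate 2 at pH 5.7.

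Neighbours in the order of medians were compared directly, in comparisons added after the levels were seen. Endodermis exceeded stele for 3 genes, petD, rbcL and accD (10.6% of all probe sets higher), and stele exceeded epidermis for 2, ndhF and petN (21.8% of all higher), and for the other genes the difference between these neighbours did not pass. Without endodermis replicate 2 or stele replicate 3 at pH 5.7 the first count was 0. Without epidermis replicate 1 at pH 5.7 the second comparison had 1 gene higher and 3 lower in the stele, without its replicate 2 the count was 14, without stele replicate 3 it was 10, and without stele replicate 2 it was 0. Epidermis exceeded columella for 33 genes (21.6% of all higher), 53 without epidermis replicate 1 and 17 without replicate 2 at pH 5.7. Columella exceeded cortex for 10 genes, among them clpP, ndhC, ndhI and ndhJ, and was lower for accD (35.2% of all higher, 22.9% lower), 11 genes in all and 7 without replicate 2 of either group. Between the 2 ends of the order, endodermis exceeded cortex for 66 of the 69 genes (21.8% of all higher), with a median of 2.50 or 5.65-fold on the log2(signal + 11.9) scale and of 8.06-fold as a ratio of mean deposited signals, and the arrays did not overlap for 66 genes at pH 5.7 (27.4% of all) and 62 at pH 4.6 (22.1% of all).

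By means of log2(signal + 11.9), 7 genes did not have their highest level in the endodermis at pH 5.7: psaC, psbB, psbM, petG and atpI had it in the stele, and rpl33 and rpl36 in the epidermis. By means of the deposited signals rpl16, ycf3 and atpH were also highest in the epidermis. On the log2 scale 11 did not have their lowest level in the cortex: ndhG, petL, petG, rpl33, psbM, psbD, psbJ, atpE, atpB and accD had it in the columella and rpoB in the epidermis. Of these, rpl33 was lowest in the cortex by means of the deposited signals. At pH 4.6 the endodermis was again the highest for 61 genes on the log2 scale, and the lowest was the cortex for 43 and the columella for 23. The calls at pH 4.6 were 42 higher and none lower in the endodermis (17.5% and 19.7% of all), 46 lower and none higher in the cortex (24.6% and 19% of all), 31 lower and 1 higher in the columella (28.0% and 32.1% of all), 7 higher and none lower in the stele (19.9% and 13.9% of all), and 2 higher and 1 lower in the epidermis (21.1% and 27.3% of all).

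**Figure D2:**
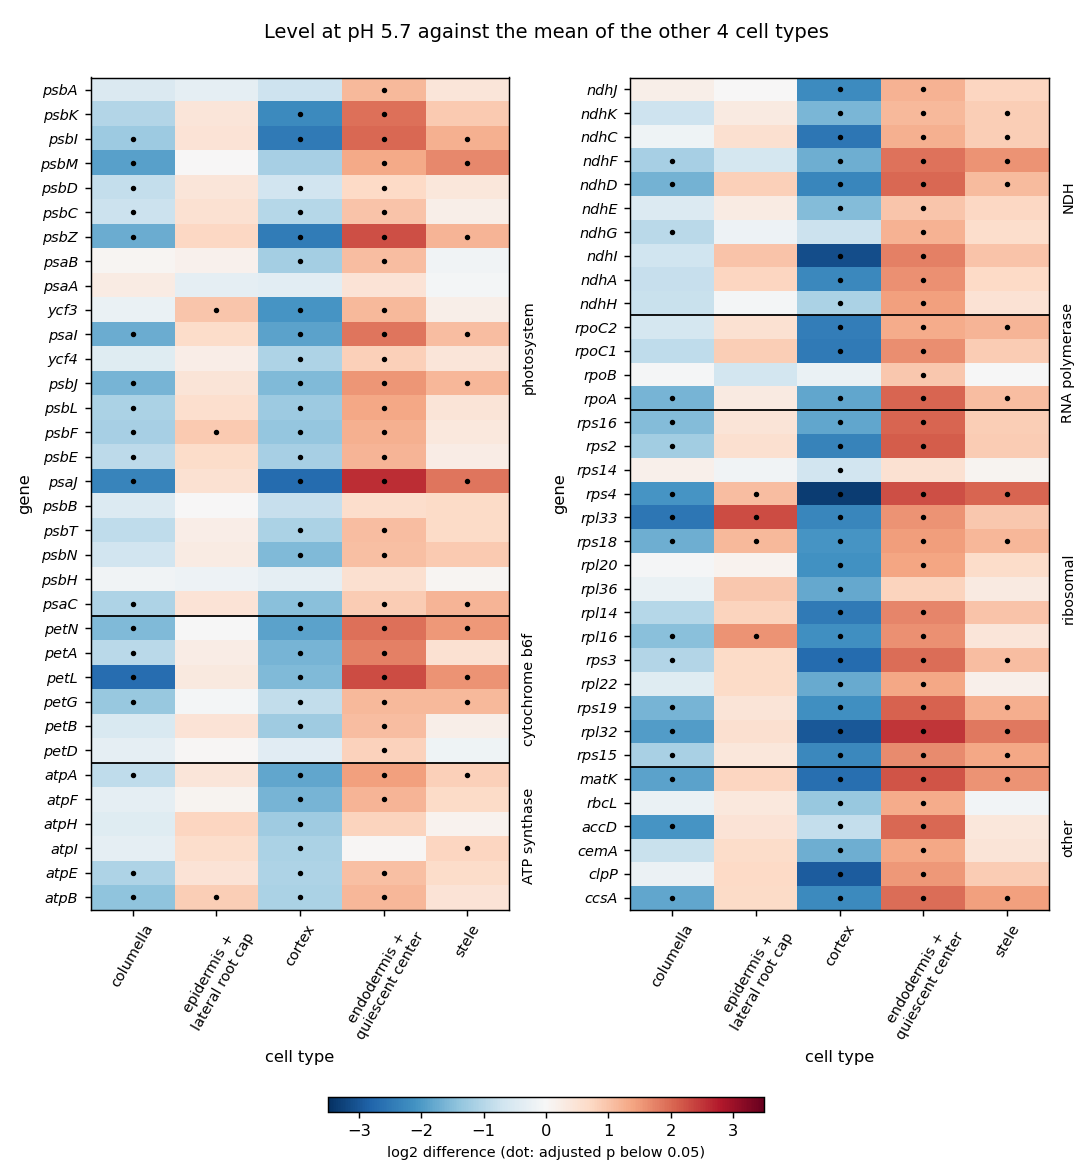
Log2 difference in level of each of the 69 genes between a population and the mean of the other 4 at pH 5.7, by functional class, with genes in their order along the plastid genome within a class and a dot where the adjusted p was under 0.05. The cortex column is below 0 and the endodermis column above 0 for every gene.

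Ribosomal protein genes, whose products build the plastid's own ribosomes, had a median difference between endodermis and cortex of 3.07 on the log2 scale, or 8.41-fold, and a median ratio of deposited signals of 12.6. All 15 were lower in the cortex (median -2.16, 27.9% of all probe sets). In the endodermis 13 were higher (median 1.65, 22.3% of all), the exceptions being rpl36 and rps14. rps4, coding for a protein of the small ribosomal subunit, had signals at pH 5.7 of 1672, 3467 and 1240.4 in the endodermis, 3683, 1513 and 891 in the stele, 243, 3134 and 1245 in the epidermis, 142, 172 and 183 in the columella, and 59.3, 76.7 and 96.6 in the cortex. All cortex arrays lay below all columella arrays, and both lay below every array of the other 3 populations. Its cortex difference was -3.32 ± 0.45 (SE), adjusted p = 5.7e-07, and its endodermis difference was 2.26 ± 0.45 (SE), adjusted p = 0.00013. rpl32, a gene of the large subunit, had signals of 978, 2294 and 490.5 in the endodermis, 1030.0, 1210.3 and 283 in the stele, 90.1, 877 and 484 in the epidermis, 80.8, 64.1 and 83.7 in the columella, and 31.4, 49.8 and 34.6 in the cortex. Cortex arrays of rpl32 were below all others, with a difference of -2.97 ± 0.46 (SE), adjusted p = 4.7e-06. rps3, a gene of the small subunit, had signals of 2509, 4107 and 1959 in the endodermis, 2425, 2582 and 768 in the stele, 532, 3002 and 1508 in the epidermis, 562, 442 and 550.1 in the columella, and 168, 209 and 213 in the cortex. Its cortex arrays too were below all the rest, with a difference of -2.70 ± 0.37 (SE), adjusted p = 6.2e-07.

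The full order of endodermis, stele, epidermis, columella and cortex held on the log2 scale for 35 of the 69 genes at pH 5.7 and 25 at pH 4.6. rpl33, which codes for a protein of the large subunit, was among those outside it. Its signals at pH 5.7 were 1259.6, 1634 and 252 in the endodermis, 1141, 1532 and 96.9 in the stele, 391, 3369 and 1324 in the epidermis, 17.2, 135 and 132 in the columella, and 73.9, 74.7 and 113 in the cortex. The epidermis mean was the highest, though its arrays overlapped with the endodermis and stele arrays. The epidermis difference of 2.29 ± 0.60 (SE), adjusted p = 0.0022 was the largest of the 69 in that population. The columella difference was -2.52 ± 0.60 (SE), adjusted p = 0.00059. Its neighbour along the genome rps18 was also among the 7 genes higher in the epidermis, by 1.14 ± 0.41 (SE), adjusted p = 0.021. Endodermis minus cortex at pH 5.7, on the log2 scale, was 3.55 for rps2, 3.72 for rps3, 4.46 for rps4, 0.98 for rps14, 3.13 for rps15, 3.07 for rps16, 2.83 for rps18 and 3.37 for rps19. For the large subunit it was 3.36 for rpl14, 3.00 for rpl16, 2.80 for rpl20, 2.50 for rpl22, 4.39 for rpl32, 3.07 for rpl33 and 2.04 for rpl36.

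The 4 RNA polymerase genes code for the core of the bacterial-type plastid polymerase: rpoA for the alpha subunit, rpoB for beta, rpoC1 and rpoC2 for the divided beta prime subunit. All 4 were higher in the endodermis (median 1.47, 22.3% of all) and 3 were lower in the cortex (median -2.11, 27.9% of all). rpoA signals at pH 5.7 were 5367, 8725 and 5106 in the endodermis, 4855, 4473 and 2216 in the stele, 1217, 4099.8 and 2742 in the epidermis, 636, 878 and 932 in the columella, and 552, 697 and 985 in the cortex. Every endodermis array was above every array of the other populations, and columella and cortex arrays formed the lower end. The difference was 2.04 ± 0.28 (SE), adjusted p = 4.9e-07 for the endodermis and -1.81 ± 0.28 (SE), adjusted p = 3.4e-06 for the cortex. rpoB stayed near the lower limit of the scale, with signals of 25.6, 61.1 and 39.9 in the endodermis, 26.9, 20 and 12.2 in the stele, 3.57, 28.2 and 4.76 in the epidermis, 31.9, 16.6 and 10.1 in the columella, and 18.1, 30.5 and 3.94 in the cortex. Its groups overlapped, and its only call was in the endodermis, at 0.93 ± 0.37 (SE), adjusted p = 0.041. Endodermis minus cortex was 3.08 for rpoA, 3.28 for rpoC1, 2.98 for rpoC2 and 0.94 for rpoB, of which rpoB did not pass.

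NDH genes code for subunits of the complex that passes electrons from photosystem I acceptors back into the plastoquinone pool. The median ratio of deposited signals between endodermis and cortex was 12.8. All 10 were higher in the endodermis (median 1.35, 22.3% of all) and 9 lower in the cortex (median -1.95, 27.9% of all), ndhG being the exception. ndhI signals at pH 5.7 were 1665, 2801 and 1214 in the endodermis, 2383, 1620.4 and 399 in the stele, 389, 2944 and 1345 in the epidermis, 548, 500.3 and 323 in the columella, and 80.9, 117 and 134 in the cortex. All cortex arrays lay below the arrays of the other populations, and the cortex difference was -3.10 ± 0.47 (SE), adjusted p = 2.8e-06. ndhC, coding for another subunit, had signals of 2200.1, 3664 and 1373 in the endodermis, 2380.5, 2007 and 1195 in the stele, 655, 2819 and 1848 in the epidermis, 813, 1105 and 1175 in the columella, and 321, 211 and 269.7 in the cortex. Columella arrays were well above cortex arrays here, and the cortex difference was -2.52 ± 0.31 (SE), adjusted p = 1.1e-07. ndhH stayed near the lower limit of the scale, with signals of 36.3, 97.5 and 24.6 in the endodermis, 32, 20.4 and 17 in the stele, 1.03, 36 and 13.5 in the epidermis, 1.62, 7.40 and 6.73 in the columella, and 0.599, 4.53 and 1.33 in the cortex. All its endodermis arrays were above all its cortex arrays. Endodermis minus cortex was 3.08 for ndhA, 3.02 for ndhC, 3.44 for ndhD, 1.99 for ndhE, 2.88 for ndhF, 1.57 for ndhG, 2.05 for ndhH, 3.90 for ndhI, 2.74 for ndhJ and 2.20 for ndhK.

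Of the photosystem genes, 19 of 22 were higher in the endodermis (median 1.14, 22.3% of all) and 17 lower in the cortex (median -1.23, 27.9% of all). In the columella 12 were lower (26.9% of all), and in the stele 7 were higher (19.3% of all). Their median ratio of deposited signals between endodermis and cortex was 4.83. psaJ, coding for a small subunit of photosystem I, had the largest difference between endodermis and cortex of the class. Its signals at pH 5.7 were 414, 888 and 218 in the endodermis, 515, 573 and 73.8 in the stele, 40.5, 274 and 177 in the epidermis, 21.5, 11.6 and 19.9 in the columella, and 3.24, 15.2 and 20.3 in the cortex. Columella and cortex arrays did not overlap with any other population, and the endodermis difference was 2.60 ± 0.48 (SE), adjusted p = 4.9e-05. psbZ, a photosystem II subunit gene, had signals of 1198, 2383 and 895 in the endodermis, 1272, 853 and 382 in the stele, 164, 1522 and 743 in the epidermis, 135, 131 and 152 in the columella, and 131, 54.1 and 101 in the cortex. Its cortex difference was -2.43 ± 0.42 (SE), adjusted p = 2.4e-05, and columella and cortex arrays shared the low end. psbM, coding for a small photosystem II subunit, had signals of 3630.4, 6948 and 1438 in the endodermis, 7272, 5669 and 1579 in the stele, 562, 3827 and 1864 in the epidermis, 562, 413 and 680.4 in the columella, and 944, 441 and 1319.7 in the cortex. Its lowest mean was in the columella, at -1.90 ± 0.51 (SE), adjusted p = 0.0020, and its highest in the stele, at 1.69 ± 0.51 (SE), adjusted p = 0.011.

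psaA, psbB and psbH were the photosystem genes with no call in the endodermis. psaA, coding for a reaction center protein of photosystem I, had signals of 52.5, 8.61 and 29.8 in the endodermis, 16.2, 17.6 and 15.1 in the stele, 8.64, 30.6 and 4.73 in the epidermis, 21.9, 36.8 and 12.2 in the columella, and 7.07, 13 and 16.4 in the cortex. These are near the lower limit of the scale, and all populations overlapped with the endodermis. Endodermis minus cortex for photosystem I was 0.68 for psaA, 1.82 for psaB, 1.88 for psaC, 3.00 for psaI and 4.23 for psaJ. For the assembly factors it was 2.58 for ycf3 and 1.54 for ycf4. For photosystem II it was 1.47 for psbA, 1.12 for psbB, 1.60 for psbC, 1.09 for psbD, 1.88 for psbE, 2.07 for psbF, 0.70 for psbH and 3.57 for psbI. For the remaining photosystem II genes it was 2.45 for psbJ, 3.32 for psbK, 2.09 for psbL, 2.00 for psbM, 2.07 for psbN, 1.76 for psbT and 3.75 for psbZ. psaA and psbH did not pass in that comparison.

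The cytochrome b6f complex passes electrons between the photosystems. All 6 of its plastid genes were higher in the endodermis (median 1.44, 22.3% of all). In the cortex 5 were lower (median -1.39, 27.9% of all), and in the columella 4 were lower (26.9% of all). petL, coding for a small subunit, had signals at pH 5.7 of 315.3, 547 and 149 in the endodermis, 374, 394 and 45.7 in the stele, 23.4, 242 and 119 in the epidermis, 0.564, 13.1 and 12.9 in the columella, and 36.8, 11.1 and 33.2 in the cortex. Columella and cortex arrays overlapped at the low end, near the lower limit of the scale, and the columella difference was -2.67 ± 0.47 (SE), adjusted p = 1.4e-05. petA, coding for cytochrome f, had signals of 2075, 3359 and 2511 in the endodermis, 2482, 1509 and 602 in the stele, 587, 2487 and 954 in the epidermis, 718, 509 and 500.0 in the columella, and 329, 418 and 424 in the cortex. Here the cortex arrays were the lowest and 2 of the 3 endodermis arrays exceeded every array of the other populations, with a difference of 1.77 ± 0.33 (SE), adjusted p = 6.8e-05 for the endodermis. Endodermis minus cortex was 2.71 for petA, 1.85 for petB, 0.96 for petD, 1.59 for petG, 3.06 for petL and 3.03 for petN.

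ATP synthase genes had a median difference between endodermis and cortex of 1.76 on the log2 scale, or 3.38-fold, and a median ratio of deposited signals of 5.22. All 6 were lower in the cortex (median -1.18, 27.9% of all) and 4 higher in the endodermis (median 1.11, 22.3% of all). atpE, coding for the epsilon subunit, had signals at pH 5.7 of 4025, 10002 and 3993 in the endodermis, 5924, 4342 and 3104 in the stele, 1803, 8178 and 4142 in the epidermis, 1469, 1787 and 1694 in the columella, and 1279, 1468 and 2375 in the cortex. Columella and cortex overlapped at the low end, with differences of -1.09 ± 0.33 (SE), adjusted p = 0.0050 and -1.09 ± 0.33 (SE), adjusted p = 0.0074. atpI, coding for subunit a, was near the lower limit of the scale, with signals of 25.4, 13 and 8.08 in the endodermis, 20.6, 45.4 and 20.5 in the stele, 19.5, 37.3 and 19.6 in the epidermis, 19.2, 2.41 and 10.6 in the columella, and 1.45, 2.03 and 2.73 in the cortex. Its cortex arrays were below all endodermis, stele and epidermis arrays. Endodermis minus cortex was 2.61 for atpA, 1.80 for atpB, 1.72 for atpE, 2.26 for atpF, 1.62 for atpH and 0.92 for atpI.

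The 6 other genes were called higher in the endodermis (median 1.73, 22.3% of all) and lower in the cortex (median -1.96, 27.9% of all) without exception. clpP, coding for the proteolytic subunit of the plastid Clp protease, had signals at pH 5.7 of 2672, 5858 and 2277 in the endodermis, 6149, 2297 and 907 in the stele, 685, 6129 and 2153 in the epidermis, 1307, 1041 and 1497 in the columella, and 256, 296 and 274 in the cortex. Cortex arrays were far below the others, at -2.90 ± 0.49 (SE), adjusted p = 1.7e-05, while the columella arrays were not lower as a group, at -0.20 ± 0.49 (SE), adjusted p = 0.737. matK, coding for an intron maturase, had signals of 1960.0, 4209.9 and 2035 in the endodermis, 2682, 2532 and 861 in the stele, 463, 2698 and 1176 in the epidermis, 214, 276 and 285 in the columella, and 142, 175 and 182 in the cortex. Its columella and cortex arrays were the lowest and did not overlap with each other, with a cortex difference of -2.63 ± 0.36 (SE), adjusted p = 7.1e-07. accD, coding for a subunit of the acetyl-CoA carboxylase of fatty acid synthesis, differed in being lowest in the columella, at -2.05 ± 0.31 (SE), adjusted p = 1.1e-06, against -0.84 ± 0.31 (SE), adjusted p = 0.024 in the cortex. Endodermis minus cortex was 2.28 for accD, 3.34 for ccsA, 2.44 for cemA, 3.53 for clpP, 3.86 for matK and 2.10 for rbcL, where rbcL codes for the large subunit of Rubisco, ccsA for a factor of cytochrome c maturation and cemA for an envelope membrane protein.

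**Figure D3:**
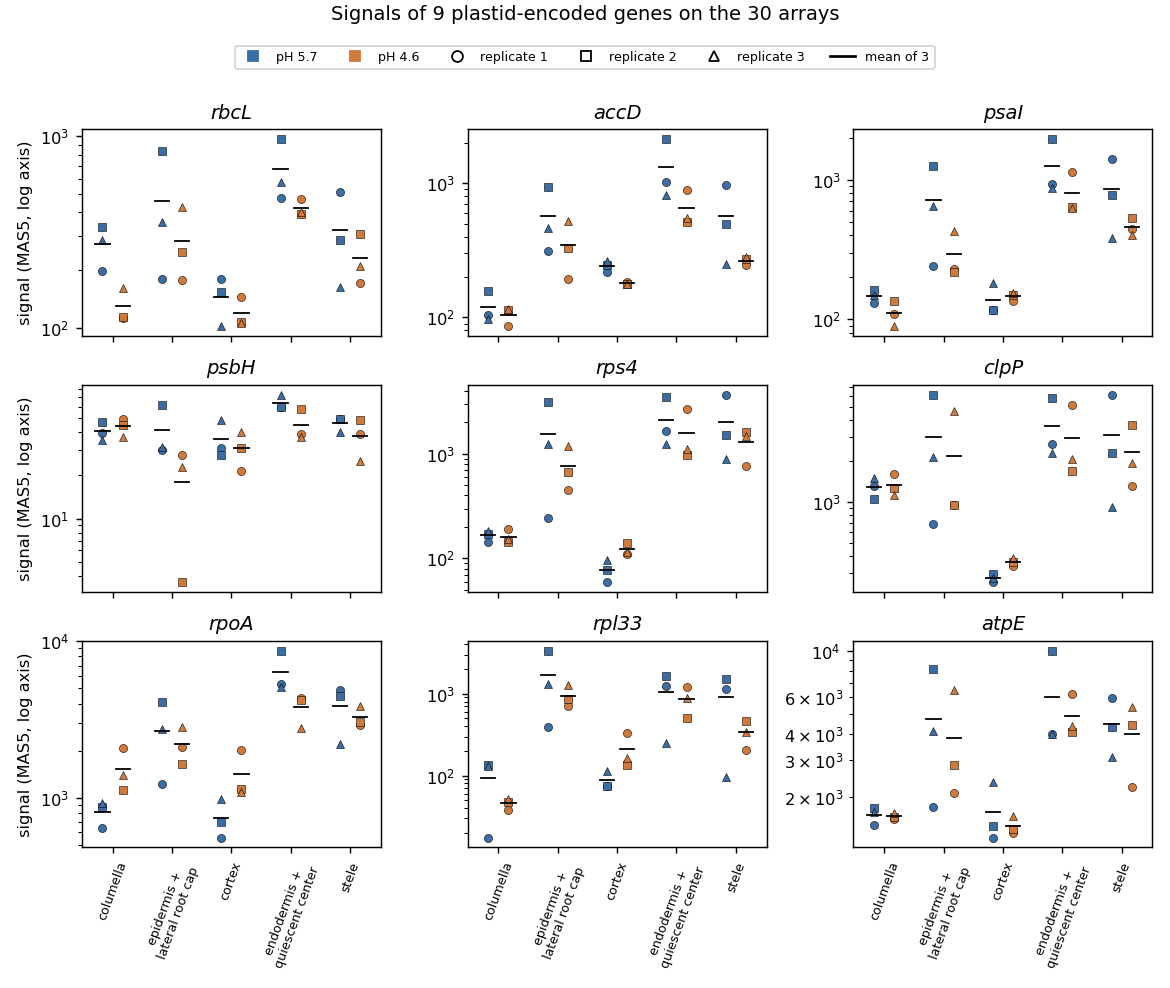
Signals (MAS5 units, log axes) of 9 plastid-encoded genes on the 30 arrays, by cell population and pH, with replicates as symbols and the mean of 3 arrays as a bar. rps4 and clpP are lowest in the cortex, rpl33 has its highest mean at pH 5.7 in the epidermis, and rbcL in the columella lies lower at pH 4.6 without overlap.

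Replicate arrays differed in the level of the whole set. The median residual SD of the 69 genes was 0.619 on the log2 scale, against 0.317 for all probe sets tested and 0.306 for those of like mean signal. The SD within groups had a median of 1.10 for the epidermis and 0.848 for the stele at pH 5.7, and of 0.277 to 0.302 for the columella and cortex groups. Deviations of 2 member genes from their group means across the 30 arrays had a median correlation of 0.737, compared with 0.003 between probe sets of like mean signal. The members share arrays and RNA, so the 69 genes do not count as 69 independent observations. Epidermis replicate 2 at pH 5.7 held the highest of 3 signals for 67 genes and replicate 1 the lowest for 67. Stele replicate 3 at pH 5.7 held the lowest for 67 and endodermis replicate 2 at pH 5.7 the highest for 62.

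At pH 4.6 against pH 5.7, no plastid-encoded gene passed the limma threshold in any single population. Among all probe sets tested 20.5% passed in the columella, 10.2% in the epidermis, 19.1% in the cortex, 16.6% in the endodermis and 7.05% in the stele. At an unadjusted p under 0.05 the counts were 4 in the columella (31.4% of all), 3 in the epidermis (23.4% of all), 2 in the cortex (30.5% of all), 4 in the endodermis (30.2% of all) and 3 in the stele (21.4% of all). A 95% interval of a gene's change, not adjusted for the number of tests, had a median half-width of 0.930 on the log2 scale. For a member of median spread, a smaller observed change had an unadjusted p above 0.05. The adjusted threshold required a larger change than that. When spread was estimated from the 6 arrays of one population, 7 genes passed in the columella (2 higher, 5 lower; 27.4% of all in that fit) and 8 in the cortex (8 higher; 18.7% of all in that fit), shares of the 69 below those of all probe sets.

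Averaged over the 5 populations, accD, rbcL, psaI and psbH fell at pH 4.6 and none rose (18.9% of all probe sets fell, 23.2% rose); at an unadjusted p under 0.05 rps14 was also lower (48.8% of all in either direction). accD signals were 1024, 2143 and 821 in the endodermis at pH 5.7 and 896, 516 and 549 at pH 4.6. In the stele they were 965, 495 and 249.6 at pH 5.7 and 244, 270.2 and 280.0 at pH 4.6, and in the epidermis 311, 939.8 and 462 at pH 5.7 and 193, 329 and 522 at pH 4.6. In the columella they were 104, 157 and 97.9 at pH 5.7 and 86, 113 and 116 at pH 4.6, and in the cortex 216, 244 and 264 at pH 5.7 and 184, 177 and 178 at pH 4.6. The pH groups of accD overlapped except in the cortex, where all pH 4.6 arrays were lower, and the mean change was -0.60 ± 0.17 (SE), adjusted p = 0.0058.

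rbcL signals in the columella were 198, 336 and 288 at pH 5.7 and 113, 114 and 160.3 at pH 4.6. In the endodermis they were 473, 968 and 578 at pH 5.7 and 471, 390.2 and 399 at pH 4.6, and in the cortex 179, 153 and 102 at pH 5.7 and 144, 106 and 105 at pH 4.6. In the epidermis they were 180.4, 832 and 357 at pH 5.7 and 178, 248 and 425 at pH 4.6, and in the stele 512, 288 and 164 at pH 5.7 and 170.4, 308 and 210.5 at pH 4.6. The pH 4.6 arrays of rbcL were lower without overlap in the columella and the endodermis, and the mean change was -0.54 ± 0.18 (SE), adjusted p = 0.014. Within the columella alone the pH 4.6 level was 2.01-fold lower on the model's scale, with an adjusted p of 0.072 (limma), which did not pass.

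psaI, coding for a small subunit of photosystem I, had signals of 242, 1241 and 652 in the epidermis at pH 5.7 and 230.2, 217 and 425 at pH 4.6. In the endodermis they were 926, 1962 and 876 at pH 5.7 and 1126, 634 and 625 at pH 4.6, and in the stele 1411, 778 and 384 at pH 5.7 and 439, 527 and 403 at pH 4.6. In the columella they were 130.2, 162 and 150.0 at pH 5.7 and 109.7, 135 and 89 at pH 4.6, and in the cortex 116, 117 and 182 at pH 5.7 and 134, 149.9 and 153 at pH 4.6. The pH groups of psaI overlapped in every population, and the mean change was -0.53 ± 0.19 (SE), adjusted p = 0.022. psbH, coding for a small phosphoprotein of photosystem II, had signals in the epidermis of 30.3, 61.9 and 31.4 at pH 5.7 and 27.7, 3.61 and 22.9 at pH 4.6. In the endodermis they were 60.3, 59.8 and 73.1 at pH 5.7 and 38.9, 58.3 and 37.2 at pH 4.6, and in the stele 49.7, 49.3 and 40.2 at pH 5.7 and 39.2, 48.6 and 25.2 at pH 4.6. In the columella they were 39.4, 47.4 and 35.5 at pH 5.7 and 49.7, 45.1 and 36.8 at pH 4.6, and in the cortex 30.9, 27.9 and 48.8 at pH 5.7 and 21.5, 30.8 and 40.2 at pH 4.6. The psbH groups did not overlap in the epidermis and the endodermis, and its mean change was -0.33 ± 0.13 (SE), adjusted p = 0.040. It was -0.17 with a pseudocount of 55.3. Its call was lost without any 1 of 12 arrays (adjusted p up to 0.134), while accD, rbcL and psaI passed without any 1 array (adjusted p up to 0.013, 0.031 and 0.047).

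**Figure D4:**
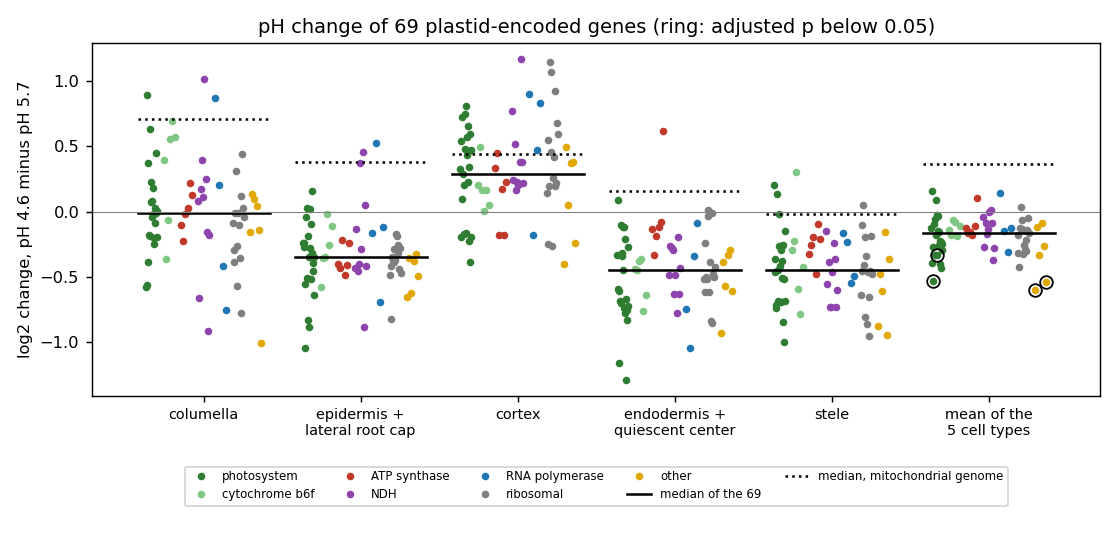
Log2 change from pH 5.7 to pH 4.6 of the 69 genes in each population and in the mean of the 5, coloured by class, with the median of the 69 as a solid bar and the median of the mitochondrial genome as a dotted bar. Rings mark the 4 genes with adjusted p under 0.05, all in the mean, and the plastid median is above 0 in the cortex alone.

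The median change of the 69 genes differed in sign between populations. It was -0.01 in the columella, -0.35 in the epidermis, 0.29 in the cortex, -0.44 in the endodermis and -0.45 in the stele, against -0.02, 0.05, 0.02, -0.00 and 0.07 for all probe sets tested. Values were below 0 for 89.9% of members in the epidermis, 95.7% in the endodermis and 94.2% in the stele, and above 0 for 81.2% in the cortex. These signs are not independent, since deviations of members had a median correlation of 0.737 and single arrays moved the whole set. The epidermis median was -0.92 without its replicate 1 at pH 5.7 and 0.23 without replicate 2. The endodermis median was -0.13 without its replicate 2 at pH 5.7, and the stele median was -0.10 without its replicate 1 at pH 5.7. Population markers also moved with pH. The 2 epidermis markers fell at pH 4.6 in the epidermis, with a median of -2.04, and 2 of the 3 cortex markers fell in the cortex, where the median of the 3 was -0.95. The endodermis marker AT4G20140 fell in the cortex, at -1.87, and had a value of -0.59 in the endodermis that did not pass. In the stele 1 epidermis marker and 2 cortex markers fell, and neither stele marker passed. The part of these shifts in the plastid-encoded values was not tested.

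The F test of a difference in pH change between populations passed for no member (12.5% of all passed). In the same test 1 member, rpoA, had an unadjusted p under 0.05 (27.4% of all).

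In the cortex, 22 genes had all 3 arrays at pH 4.6 above all 3 at pH 5.7 (21.2% of all higher) and accD had them below (15.7% of all lower). The 22 included 6 ribosomal genes (rpl16, rpl32, rpl33, rps3, rps4 and rps18), 3 NDH genes (ndhA, ndhD and ndhI), the polymerase genes rpoA and rpoC2, the photosystem genes psaC, psbD, psbE, psbF, psbI, psbK and psbZ, and petA, petB, ccsA and clpP. clpP signals in the cortex were 256, 296 and 274 at pH 5.7 and 337, 359 and 384 at pH 4.6, without overlap. In the cortex, the 3′ to 5′ ratio of ubiquitin controls was 6.49 to 7.64 at pH 5.7 and 4.12 to 5.29 at pH 4.6. The GAPDH ratio there was 4.44 to 6.82 against 2.28 to 3.25. GAPDH ratios were also higher at pH 5.7 in the columella, 5.67 to 9.06 against 4.10 to 5.21. In the epidermis they were 4.07 to 4.66 against 3.54 to 4.02, and in the endodermis 6.70 to 7.75 against 4.31 to 5.66. GAPDH ratios overlapped in the stele, ubiquitin ratios outside the cortex and actin ratios in every population. The part of these ratios in the result was not tested. Outside the cortex, the pH groups did not overlap for 9 genes in the columella (41.1% of all) and 2 in the epidermis (8.49% of all lower). The same held for 7 in the endodermis (14.9% of all lower) and 1 in the stele (9.75% of all lower). These were in the columella ndhG, petG, psbB and rpoA, higher, and ndhC, ndhJ, petB, rbcL and rpoC2, lower. They were psbD and psbH, lower, in the epidermis, psbC, psbD, psbH, rbcL, rpoA, rps14 and rps16, lower, in the endodermis, and psbJ, lower, in the stele.

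rpoA differed in the direction of its values between populations. Its columella signals were 636, 878 and 932 at pH 5.7 and 2070.1, 1120.2 and 1389 at pH 4.6, and its cortex signals 552, 697 and 985 at pH 5.7 and 2032, 1135 and 1090.2 at pH 4.6. Its endodermis signals were 5367, 8725 and 5106 at pH 5.7 and 4315, 4219.9 and 2798 at pH 4.6. The arrays did not overlap in any of the 3 populations, higher at pH 4.6 in the columella and the cortex and lower in the endodermis. The changes were 0.87 ± 0.35 (SE), adjusted p = 0.080, 0.90 ± 0.35 (SE), adjusted p = 0.072 and -0.74 ± 0.35 (SE), adjusted p = 0.149, in that order, and limma's F test over the 5 populations gave an adjusted p of 0.059. None of these passed.

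By class, the median of the mean change was -0.14 for ATP synthase, -0.12 for cytochrome b6f, -0.11 for NDH, -0.13 for RNA polymerase, -0.18 for ribosomal, -0.23 for photosystem and -0.30 for the 6 other genes. Photosystem values ran from -0.53 for psaI to 0.16 for psaC. Ribosomal values ran from -0.42 for rpl20 to 0.04 for rpl32, and NDH values from -0.37 for ndhJ to 0.02 for ndhH. In the cortex the class medians were 0.65 for RNA polymerase, 0.42 for ribosomal, 0.33 for photosystem, 0.31 for NDH, 0.20 for ATP synthase and 0.17 for cytochrome b6f genes. In the endodermis they were -0.60 for photosystem, -0.54 for RNA polymerase, -0.50 for ribosomal, -0.46 for NDH, -0.44 for cytochrome b6f and -0.13 for ATP synthase genes. All class values in single populations come from genes of which none passed.

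The mitochondrial genome is the other organelle genome of these cells, and 17 of its probe sets were tested. Their median changes were 0.71 in the columella, 0.38 in the epidermis, 0.44 in the cortex, 0.16 in the endodermis, -0.02 in the stele and 0.36 in the mean. Of the 17, 6 rose in the columella, 1 in the epidermis, 6 in the cortex and 8 in the mean, and 1 fell in the stele. Of all probe sets, 20.5%, 10.2%, 19.1%, 42.1% and 7.05% passed in either direction in these comparisons, in that order. In the mean, 23.2% of all rose. Their levels at pH 5.7 against the other populations had medians of -1.16 in the columella, -0.75 in the cortex, 0.65 in the endodermis, 0.89 in the stele and 0.57 in the epidermis. Across the 30 arrays, the median correlation between plastid and mitochondrial deviations from group means was 0.558. The difference between the 2 sets was not tested.

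Few nuclear genes of plastid function had a probe set with 1 gene. Of 52 listed photosynthesis genes, 8 had one and 7 were tested. Of the 7, 5 were higher in the cortex at pH 5.7 (20.3% of all). In the mean at pH 4.6, 3 fell (18.9% of all), namely PSAN (AT5G64040), PSBW (AT2G30570) and ATPC1 (AT4G04640). Their mean log2 changes were -0.71, -0.43 and -0.47. The sizes depended on the pseudocount, with calls kept: they were -1.34, -0.57 and -0.59 with a pseudocount of 1 and -0.29, -0.22 and -0.27 with one of 55.3. The summed signal of the 8 was 350.3 to 869 on the cortex arrays, the population with the lowest plastid-encoded levels, and 141 to 391 on the others. AT4G28750, the untested gene of the list, had population means between 5.67 and 18.7, near the lower limit of the scale. Their part in the plastid-encoded levels was not tested.

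Of 37 listed nuclear genes for plastid ribosomal proteins 9 had a probe set, and 1 of them, AT2G43030, rose in the mean by 0.33 (23.2% of all rose). That call was lost under quantile normalization, equal array medians or leaving out any 1 of 4 arrays (limma, adjusted p up to 0.064). The 4 were epidermis replicate 2 and endodermis replicate 1 at pH 4.6, and replicate 3 of endodermis and of stele at pH 5.7. Counts of the 9 by population follow. At pH 5.7, 4 were higher and 1 lower in the columella (37.7% and 26.9% of all), and 6 were lower in the epidermis (30.7% of all). In the endodermis 3 were higher and 1 lower (22.3% and 22.7% of all), as in the stele (19.3% and 15% of all). None was called in the cortex (20.3% of all higher, 27.9% lower). Of 15 starch genes 2 had a probe set. SBE2.2 (AT5G03650), coding for a starch branching enzyme, was higher in the columella by 3.23 at pH 5.7 (37.7% of all higher). The other starch gene was not called there, and the median of the 2 was 1.70. In the endodermis 1 of the 2 was higher and 1 lower. AT5G15700 was the 1 gene with a probe set among 21 listed for plastid transcription. It rose at pH 4.6 in all 5 populations, from 7.29 ± 2.11 to 93.2 ± 17.4 (SD, n = 3) in the cortex and from 49.9 ± 7.19 to 118 ± 14.6 in the columella. The log2 changes were 1.07 in the columella, 1.92 in the epidermis, 2.45 in the cortex, 2.14 in the endodermis and 1.88 in the stele, with adjusted p of 0.0079 or less. The mean change was 1.89, and it was 2.71 with a pseudocount of 1 and 0.98 with one of 55.3. None of the 4 listed genes for plastid RNA turnover had a probe set.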

How the data were processed

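RNA of 30 samples was measured on Affymetrix ATH1 arrays. Intensity values are the signals the authors deposited in the series matrix, made with MAS5 per the submitters' processing notes; their 2% trimmed mean was about 250.0 on each array, tested on the file, so each array is scaled to the same mean. RNA was amplified by the two-cycle protocol per the labels, which as usually run primes on poly(A) tails. Plastid RNAs mostly lack stable poly(A) tails, and how this affects the signals was not tested. Depth has no meaning for arrays; their number, 3 in each group, limits the precision.

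From the deposited intensities, log2(signal + 11.9) was computed, with the 25th percentile of all values as pseudocount. limma 3.58.1 in R 4.3.3 was fitted with 1 mean for each of 10 groups and an intensity trend (20 residual degrees of freedom), on 17038 probe sets, 64 control probe sets left out, and p-values were adjusted over all of them. The script was tested on simulated data. Genes were named through the platform annotation and the TAIR10.1 gene table, whose coordinates are not given. Of 18 mitochondrial probe sets, matched by symbol, 17 were tested.

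Signals on each array are given for members past the threshold, the 8 with the widest range between populations, the 4 with the highest and the 4 with the lowest mean signal, and the brightest of each class; every other member is named with its difference between endodermis and cortex. From the nuclear lists, up to 4 genes with the largest mean pH change past the threshold are named. The members and all lists were chosen with earlier results of these data known. Alternatives covered the pseudocount, the filter, normalization, array weights, the arrays fitted, the replicate block and leaving out each array. No sequences are shown.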

Additional observations from a re-analysis of the deposited data

Results flagged for a closer look

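In 4 genes all 3 arrays at pH 4.6 lay above those at pH 5.7 in one population and below them in another. The share of all probe sets with this pattern was not counted, so the 4 are not read as particular to these genes. In single populations, non-overlap was common among all probe sets (41.1% in the columella in either direction, 21.2% higher and 15.7% lower in the cortex). rpoA was higher in the columella and the cortex and lower in the endodermis, and its log2 changes differed by 1.61 between columella and endodermis and by 1.64 between cortex and endodermis. psbD was higher in the cortex and lower in the epidermis and the endodermis, with differences of 1.31 and 0.81. rpoC2 was higher in the cortex and lower in the columella, with a difference of 1.59, and petB likewise, with a difference of 0.86. The test of equal change over the 5 populations (limma) gave adjusted p of 0.059 for rpoA, 0.189 for psbD, 0.551 for rpoC2 and 0.586 for petB. The single differences were not tested.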

How the results depend on the processing

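Leaving out each array in turn gave these ranges of called genes: for pH change 0 to 3 in the columella, 0 to 2 in the epidermis, 0 to 1 in the cortex, 0 to 1 in the endodermis, 0 to 0 in the stele, 3 to 8 in the mean and 0 to 1 in the interaction. The 8 came without epidermis replicate 1 at pH 5.7. Shares of all probe sets are not given for fits that leave out an array. For levels at pH 5.7 the ranges were 61 to 67 in the F test, 32 to 45 in the columella, 2 to 39 in the epidermis, 56 to 65 in the cortex, 34 to 66 in the endodermis, 9 to 42 in the stele, 0 to 4 for endodermis minus stele, 0 to 14 for stele minus epidermis, 17 to 53 for epidermis minus columella, 7 to 18 for columella minus cortex and 60 to 67 for endodermis minus cortex. The comparison of stele with epidermis turned to 4 genes, 3 of them lower in the stele, without epidermis replicate 1 at pH 5.7. Columella minus cortex was 18 without that same array and 17 without epidermis replicate 2 at pH 5.7. Median changes ranged from -0.10 to 0.03 in the columella, -0.92 to 0.23 in the epidermis, 0.28 to 0.34 in the cortex, -0.70 to -0.13 in the endodermis, -0.85 to -0.10 in the stele and -0.27 to -0.06 in the mean. With array weights, pH calls numbered 4 in the columella (29.6% of all probe sets called in the same fit), 1 in the epidermis (19.6%), 4 in the cortex (33.8%), 3 in the endodermis (16%), 3 in the stele (9.02%), 10 in the mean (47.4%) and 5 in the interaction (29.2%), and level calls 13 in the epidermis (58.7%), 45 in the stele (40.6%), 12 for stele minus epidermis (47%) and 26 for columella minus cortex (66.1%). Equal array medians gave 2 pH calls in the epidermis (9.06% of all), 1 in the interaction (11.7%) and 19 level calls in the epidermis (50.1%). Quantile normalization gave 1 pH call in the epidermis (8.69% of all), and so did a pseudocount of 1 (8.73%). A pseudocount of 1 (21.5% of all) and no filter (17.6%) each gave 1 call for endodermis minus stele. Fits on the 6 arrays of one population gave 7 pH calls in the columella and 8 in the cortex, and the pH 4.6 arrays gave 3 level calls in the epidermis and 7 in the stele. psbH was not called with a pseudocount of 1, no filter or array weights. The replicate number as a block gave 4 calls in the mean (42% of all) and 0 in each single population (6.77% to 20.3% of all). It gave 61 level calls in both cortex (48.1% of all) and endodermis (44.9%). Of 15 same-number correlations, 6 were over 0.1 (-0.135 to 0.211), and those of the epidermis were 0.176, 0.181 and 0.121. These values alone do not decide whether the numbers pair the samples. The causes of these shifts were not tested. Dim genes such as atpI, psaA, ndhH and rpoB are limited by the scale's lower end.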
